A study of Arabidopsis thaliana with 9 samples.

Results

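The vascular DOF transcription factors were 7 genes, PEAR1 (AT2G37590), PEAR2 (AT5G02460), TMO6 (AT5G60200), HCA2 (AT5G62940), DOF2.1 (AT2G28510), OBP1 (AT3G50410) and OBP4 (AT5G60850), taken by gene ID from 32833 genes listed in the files. The ID rule uses no measured value, but the genes were chosen with earlier results of these data known. In the files PEAR1 is listed as DOF2.4, PEAR2 as DOF5.1, TMO6 as DOF5.3, HCA2 as DOF5.6, OBP1 as DOF3.4 and OBP4 as DOF5.4. RNA sequencing gave their transcript levels in the roots of 4 to 5 day old Arabidopsis thaliana seedlings with p35S::XVE>>pLexA::STZ in Col-0, a transgene that switches on the zinc finger repressor STZ, also called ZAT10, when estradiol is given. The groups were 20 µM estradiol for 24 h, 20 µM estradiol for 6 h and a mock treatment with ethanol for 24 h, with 3 libraries each, labelled as biological replicates, and 9 libraries altogether. The portion on the side of the root tip was taken, and the sources differ on how much of the root it was. The transgene was present in all 3 groups, its activator XVE was driven by the constitutive 35S promoter, and the study's methods give a single transgenic line. The 6 h libraries had no mock of their own duration, and no estradiol-treated Col-0 seedlings were among the groups, so that STZ induction and estradiol itself cannot be told apart. The study itself names OBP4, TMO6 and HCA2, along with MP, as direct STZ targets with a role in vascular development. It predicted such targets from published DAP-seq binding data, among transcription factors that the elicitor peptide PEP1 induced. The choice may also rest in part on these samples, so that a change in these genes is not independent evidence.

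DOF proteins are plant-specific transcription factors with a single zinc finger of 4 cysteines that recognizes the core AAAG. PEAR1 and PEAR2 are made in early protophloem sieve elements in response to cytokinin and move a short way into neighbouring procambial cells, and together with TMO6 and HCA2 they promote the periclinal divisions that thicken the vascular cylinder of the root. DOF2.1 acts downstream of the TMO5-LHW heterodimer and of cytokinin in the same kind of division. OBP1 promotes entry into the cell cycle, whereas OBP4 restrains cell growth and root hair elongation. HD-ZIP III factors of the central stele counteract PEAR activity, and PEAR proteins in turn activate HD-ZIP III genes.

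The DNA that encodes the finger is shown for 6 of the genes because it is the feature that makes them DOF factors and the part in which they are most easily compared. The stretches were read from the coding sequence in the RefSeq TAIR10.1 genome, 5′ to 3′ on the coding strand, and run over 29 codons, or 87 bases, with the 4 cysteine codons in capitals.
PEAR1, chr2:15769775-15769861, plus strand: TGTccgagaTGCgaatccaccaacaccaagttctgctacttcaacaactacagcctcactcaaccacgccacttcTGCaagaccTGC
PEAR2, chr5:540374-540460, minus strand: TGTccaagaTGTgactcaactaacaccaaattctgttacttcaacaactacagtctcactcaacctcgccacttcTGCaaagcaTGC
TMO6, chr5:24241346-24241432, plus strand: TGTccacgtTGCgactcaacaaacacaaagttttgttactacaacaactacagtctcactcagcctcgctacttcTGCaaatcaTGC
DOF2.1, chr2:12200016-12200102, minus strand: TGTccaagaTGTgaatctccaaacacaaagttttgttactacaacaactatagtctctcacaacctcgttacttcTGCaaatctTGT
OBP1, chr3:18709965-18710051, plus strand: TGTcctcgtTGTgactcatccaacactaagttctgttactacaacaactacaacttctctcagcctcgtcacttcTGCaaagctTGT
OBP4, chr5:24480734-24480820, plus strand: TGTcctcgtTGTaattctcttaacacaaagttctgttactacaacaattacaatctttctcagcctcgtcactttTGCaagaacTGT

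In each of these 6 genes the finger lies within a single exon. Among their 15 pairs the identity of finger bases lay between 72.4% and 87.4%, and the share of codons with the same residue between 75.9% and 93.1%. PEAR1 and PEAR2 were the closest in residues, with 2 codons of different residue, while OBP1 differed from PEAR1 at 7 codons. Full coding sequences of the 7 genes ran from 253 codons in OBP1 to 399 codons in PEAR2. OBP1 and OBP4 have a single annotated exon and the other 5 genes have 2. The genes span chr2:15769086-15770805 (PEAR1), chr5:539249-541316 (PEAR2), chr5:24240810-24242523 (TMO6), chr5:25256852-25258704 (HCA2), chr2:12199075-12200780 (DOF2.1), chr3:18709613-18710836 (OBP1) and chr5:24480291-24482163 (OBP4). None overlaps another annotated gene, and the exon length in the files equals the annotated length for 7 of 7. Every read counted for these genes was also counted as uniquely mapped, so that reads were not shared with a copy elsewhere.

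The 250 bases before the annotated start were searched for ACT and AGT, each being the other on the opposite strand, because STZ-type zinc fingers have been reported to bind repeats of these letters. HCA2 held 15 matches, a number reached by 1.08% of 27443 promoters of this length, and DOF2.1 held 11, reached by 13.8%. OBP1 had 9, PEAR2 and OBP4 had 8 each, TMO6 had 7 and PEAR1 had 5, against a median of 7 over all promoters, of which 100% held at least 1. The promoters of HCA2, which had the most matches, and of OBP4, which had the smallest p at 6 h, are shown with ACT and AGT in capitals. The HCA2 stretch holds 15 such capital triplets and the OBP4 stretch 8, some of them side by side. A match is a description of the letters only.
HCA2, chr5:25258705-25258954, minus strand: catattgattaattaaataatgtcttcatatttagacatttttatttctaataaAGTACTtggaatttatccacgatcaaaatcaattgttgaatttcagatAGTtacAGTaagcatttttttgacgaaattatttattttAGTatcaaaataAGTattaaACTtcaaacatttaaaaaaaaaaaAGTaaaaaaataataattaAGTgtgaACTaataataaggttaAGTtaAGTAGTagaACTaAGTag
OBP4, chr5:24480041-24480290, plus strand: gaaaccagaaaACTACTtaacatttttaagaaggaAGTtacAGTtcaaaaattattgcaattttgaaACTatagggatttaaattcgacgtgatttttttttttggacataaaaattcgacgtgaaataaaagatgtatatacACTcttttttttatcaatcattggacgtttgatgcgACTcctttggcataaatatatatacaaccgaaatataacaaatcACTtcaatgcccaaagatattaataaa

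The libraries held between 24375822 and 31299634 counted exon reads, and 20272 genes, including all 7 DOF genes, passed the filter on low counts. STZ was 474-fold higher at 24 h and 49.5-fold higher at 6 h than in mock, with 246924 to 337538 reads per library at 24 h, 27555 to 35537 at 6 h and 510 to 947 in mock, although its reads do not separate the transgene from the native gene. On the leading principal component, which held 74.9% of the variance, the third 24 h library lay at −73.6, against −90.8 and −87.3 for the other 24 h libraries. Levels are given as CPM, counts scaled to the TMM-adjusted library size, unless they are given as TPM, which also divides by exon length. To be called, a gene needed an adjusted p under 0.01 and a 1.5-fold or greater difference.

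After 24 h, 6 of the 7 DOF genes were lower than in mock, and after 6 h only OBP1 and OBP4 were lower. Between 24 h and 6 h, 5 genes fell, namely PEAR1, PEAR2, TMO6, HCA2 and DOF2.1. For 24 h against mock, 35.5% of all genes tested were called, 18.0% lower and 17.6% higher. The shares for 6 h against mock were 13.1% called, 7.71% lower and 5.43% higher, and those for 24 h against 6 h were 24.6% called, 10.5% lower and 14.1% higher. None of the 7 DOF genes was called higher in any of these comparisons. The median log2 change of the 7 genes was −1.21 for 24 h against mock, beside −0.0082 over all genes tested, 0.031 for 6 h against mock, beside 0.0037, and −0.94 for 24 h against 6 h, beside −0.022. Without overlap between libraries, all 7 genes were lower at 24 h than in mock, as were 34.8% of all genes tested. OBP4, OBP1 and TMO6 were lower without overlap at 6 h than in mock, as were 28.3% of all genes tested, and the 5 genes that fell between 24 h and 6 h did so without overlap, as did 28.9%. Both comparisons with mock share the same mock libraries. In bulk root samples, fewer cells of a type and less RNA per cell cannot be told apart.

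**Figure D1:**
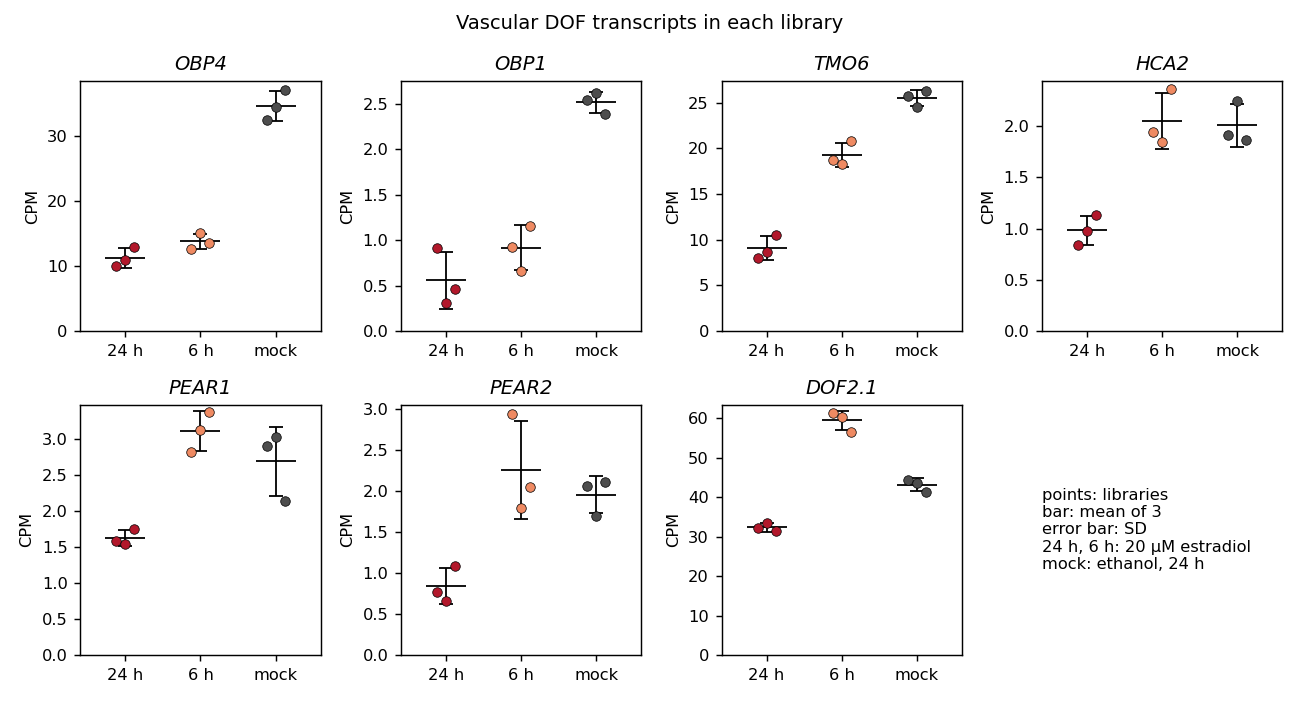
CPM of each of the 7 DOF genes in the 24 h, 6 h and mock libraries, with 1 point per library, the mean of 3 as a bar and the SD as an error bar. OBP4 and OBP1 were already low at 6 h, TMO6 at 6 h lay between 24 h and mock, HCA2, PEAR1 and PEAR2 were low at 24 h only, and DOF2.1 was highest at 6 h.

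OBP4 and OBP1 showed the early fall. OBP4, a repressor of cell growth, had 9.97, 11.0 and 13.0 CPM at 24 h, 12.7, 15.1 and 13.6 CPM at 6 h, and 32.4, 34.4 and 37.1 CPM in mock. The libraries of both estradiol groups lay below every mock library, while the ranges at 24 h and 6 h overlapped. OBP4 fell 2.51-fold at 6 h (log2 −1.33 ± 0.11 SE, adjusted p = 3.29e-06) and 3.06-fold at 24 h against mock (log2 −1.62 ± 0.11, adjusted p = 1.25e-07). Between 24 h and 6 h its log2 difference was −0.29 ± 0.11 (adjusted p = 0.042), which was not called.

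OBP1, a promoter of cell cycle entry, was among the weakest of the 7, with 26, 7 and 12 reads at 24 h, 25, 18 and 33 reads at 6 h and 69, 77 and 76 reads in mock. In CPM these were 0.913, 0.309 and 0.466 at 24 h, 0.931, 0.663 and 1.16 at 6 h, and 2.54, 2.62 and 2.39 in mock. Every estradiol library was below every mock library, and the first 24 h library reached into the 6 h range. OBP1 fell 2.72-fold at 6 h (log2 −1.45 ± 0.28, adjusted p = 0.00198) and 4.32-fold at 24 h against mock (log2 −2.11 ± 0.31, adjusted p = 7.37e-05). The 24 h fall was the largest fold of the 7 genes in the fit of all libraries, and its error was also the largest. Without the second mock library the 6 h call was lost (log2 −1.41, adjusted p = 0.0114). Between 24 h and 6 h the log2 difference of −0.67 ± 0.35 was not called (adjusted p = 0.127).

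TMO6, a target of the auxin response factor MONOPTEROS, stood between the early and the late genes. It had 7.97, 8.70 and 10.5 CPM at 24 h, 18.7, 18.3 and 20.8 CPM at 6 h, and 25.7, 24.5 and 26.3 CPM in mock, so that the 3 groups did not overlap. At 6 h the difference from mock had an adjusted p of 0.00706 with a log2 change of −0.40 ± 0.10, or 1.32-fold lower, which is under the fold limit of the call. At 24 h TMO6 fell 2.82-fold against mock (log2 −1.49 ± 0.10, adjusted p = 1.78e-07) and 2.13-fold against 6 h (log2 −1.09 ± 0.11, adjusted p = 4.61e-06).

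HCA2, PEAR1 and PEAR2 showed no call at 6 h and a fall at 24 h. HCA2, named for high cambial activity in plants in which it is overactive, had 0.842, 0.971 and 1.13 CPM at 24 h, 1.94, 1.84 and 2.36 CPM at 6 h, and 1.91, 2.24 and 1.86 CPM in mock. Its 24 h libraries lay apart from the others, and the 6 h and mock libraries overlapped. HCA2 fell 2.05-fold at 24 h against mock (log2 −1.03 ± 0.21, adjusted p = 0.000774) and 2.09-fold against 6 h (log2 −1.07 ± 0.21, adjusted p = 0.000915). Its log2 difference of 0.031 ± 0.18 at 6 h against mock was not called (adjusted p = 0.913), and its sign depended on the scaling and on single libraries.

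PEAR1, a mobile factor of the protophloem domain, had 1.58, 1.54 and 1.75 CPM at 24 h, 2.83, 3.13 and 3.38 CPM at 6 h, and 2.91, 3.03 and 2.14 CPM in mock. The 24 h libraries were below all others, and the third mock library was the lowest of the mock group. PEAR1 fell 1.65-fold at 24 h against mock (log2 −0.72 ± 0.18, adjusted p = 0.00404) and 1.92-fold against 6 h (log2 −0.94 ± 0.18, adjusted p = 0.000899). The call against mock was the least firm of the 6, since it was lost without the first 24 h library (adjusted p = 0.0156), the second 24 h library (0.0133), the first mock library (0.0168) or the second mock library (0.0267), and when only the 24 h and mock libraries were fitted (0.0116). The log2 change lay between −0.87 and −0.60 when single libraries were left out. At 6 h against mock its log2 difference was 0.22 ± 0.17 (adjusted p = 0.337).

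PEAR2, the closest to PEAR1 by finger residues among the 6 genes compared, had 22, 15 and 28 reads at 24 h, 79, 49 and 58 reads at 6 h and 56, 50 and 67 reads in mock. Its levels were 0.772, 0.662 and 1.09 CPM at 24 h, 2.94, 1.8 and 2.05 CPM at 6 h, and 2.06, 1.7 and 2.11 CPM in mock. The 24 h libraries again did not overlap the others, and the first 6 h library was the highest of all. PEAR2 fell 2.31-fold at 24 h against mock (log2 −1.21 ± 0.26, adjusted p = 0.0014) and 2.67-fold against 6 h (log2 −1.42 ± 0.26, adjusted p = 0.000606). At 6 h against mock its log2 difference was 0.21 ± 0.23 (adjusted p = 0.502), and it was −0.024 without the first 6 h library.

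DOF2.1, which promotes periclinal divisions of procambial cells, had libraries that were all above mock at 6 h and all below mock at 24 h. It had 32.1, 33.6 and 31.4 CPM at 24 h, 61.3, 60.5 and 56.7 CPM at 6 h, and 44.5, 43.6 and 41.3 CPM in mock. No group overlapped another. The 6 h level was 1.38-fold that of mock (log2 0.46 ± 0.062, adjusted p = 0.000154) and the 24 h level was 1.33-fold lower than mock (log2 −0.41 ± 0.064, adjusted p = 0.000107). Both passed the p threshold and stayed under the fold limit, so that neither was called. Between 24 h and 6 h DOF2.1 fell 1.84-fold (log2 −0.88 ± 0.063, adjusted p = 4.52e-07). Of all genes tested, 27.3% had every 6 h library above every mock library.

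**Figure D2:**
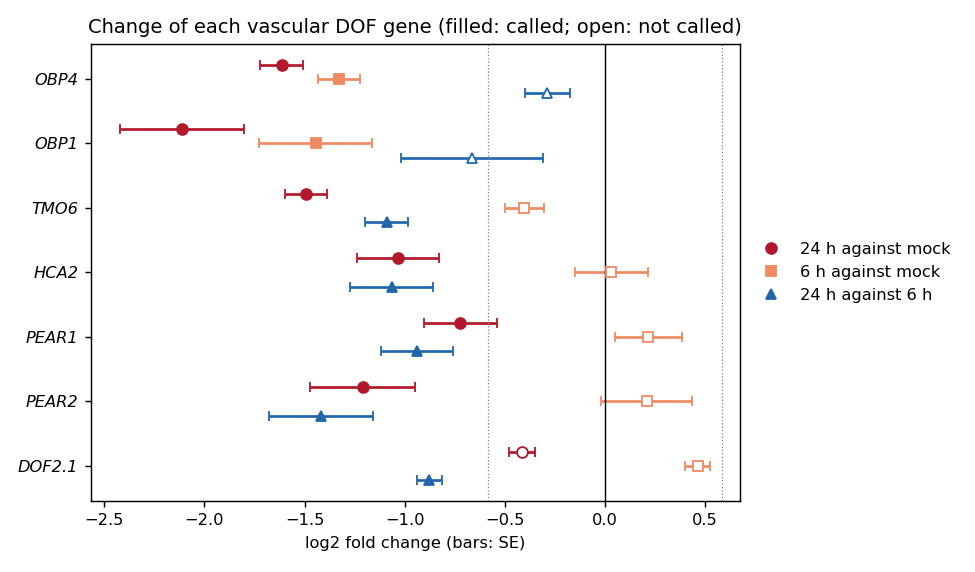
Log2 fold change of each DOF gene with its SE in the comparisons of 24 h with mock, 6 h with mock and 24 h with 6 h. Filled symbols mark calls, dotted lines the 1.5-fold limit. At 6 h against mock only OBP4 and OBP1 lie beyond the limit, and at 24 h against mock only DOF2.1 lies within it.

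Compared per length, DOF2.1 was the most abundant of the 7 genes in every group, with 40.7 ± 0.571 TPM at 24 h, 78.4 ± 2.99 TPM at 6 h and 58.1 ± 3.06 TPM in mock (SD, n = 3 each). At 24 h it was followed by OBP4 (10.1 TPM) and TMO6 (9.40 TPM), whose ranges overlapped, then by PEAR1 (1.8 TPM), and then by HCA2 (0.993 TPM), PEAR2 (0.804 TPM) and OBP1 (0.771 TPM), of which each neighbouring pair overlapped. At 6 h the order was TMO6 (20.9 TPM), OBP4 (12.9 TPM), PEAR1 (3.62 TPM), PEAR2 (2.26 TPM), HCA2 (2.17 TPM) and OBP1 (1.32 TPM), where only PEAR2 and HCA2 overlapped as neighbours. In mock OBP4 (33.0 TPM) stood above TMO6 (28.2 TPM), and both were well above OBP1 (3.68 TPM) and PEAR1 (3.20 TPM), which overlapped, and HCA2 (2.17 TPM) and PEAR2 (1.99 TPM), which also overlapped. By mean TPM, OBP1 was the lowest of the 7 in both estradiol groups and the fourth in mock. Its range at 24 h, 0.401 to 1.25 TPM, overlapped those of both HCA2 and PEAR2, so that its rank there is not separate from theirs.

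Summed over the 7 genes the level was 64.5 ± 4.5 TPM at 24 h, 122 ± 2.4 TPM at 6 h and 130 ± 2.14 TPM in mock (SD, n = 3 each). DOF2.1 made up 59.2% to 65.2% of that sum at 24 h, 62.2% to 65.9% at 6 h and 42.7% to 45.9% in mock. The share of OBP4 was 14.3% to 17.3% at 24 h, 9.69% to 11.6% at 6 h and 23.7% to 27.2% in mock. Every 6 h library had a lower sum than every mock library, with 119 to 124 TPM at 6 h and 128 to 133 TPM in mock, and at 6 h a larger share came from DOF2.1 and a smaller share from OBP4.

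**Figure D3:**
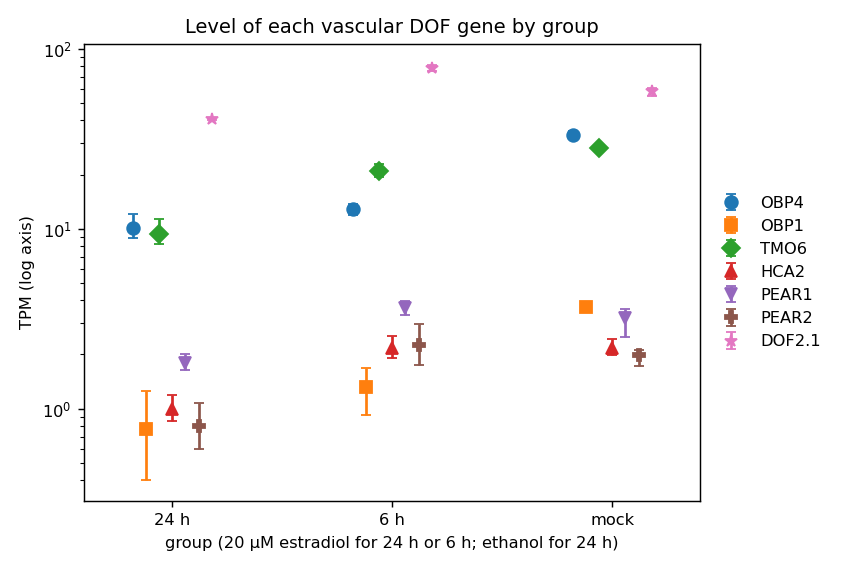
Mean TPM of the 7 DOF genes at 24 h, 6 h and in mock on a log axis, with bars from the lowest to the highest of 3 libraries. DOF2.1, OBP4 and TMO6 lie above the other 4 genes in every group.

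Over the 9 libraries, log2 CPM of HCA2 followed that of TMO6 (Pearson r = 0.939) and PEAR1 (0.938) most closely, and OBP1 followed OBP4 (0.862), while DOF2.1 and OBP4 were hardly related (0.125). These are descriptions, since the libraries share 3 treatment groups. Among 8692 other tested genes that had a symbol and averaged 5 CPM or more, the pattern most like OBP4 was that of PPR4 (r = 0.996) and XTH24 (0.995), and most like OBP1 that of SBT2.1 (0.986) and IF3-2 (0.981). For TMO6 these were EDS1B (0.997) and FPGS1 (0.995), and for HCA2 they were HMA4 (0.988), a zinc transporter of the root stele, and PRA1B2 (0.987). PEAR1 was matched by EDS1 (0.963), an immune regulator, and TSBtype2 (0.960), and PEAR2 by DIT2-1 (0.984) and SAHH1 (0.984). DOF2.1 was matched by GSTU19 (0.987) and FD3 (0.985).

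HD-ZIP III genes, which encode the factors that act against PEAR proteins in the stele, were lower at 24 h as well. Of 5 tested, 4 fell at 24 h against mock, 4 fell at 24 h against 6 h and none was called at 6 h against mock. Over all genes tested, 18.0% were called lower at 24 h against mock and 10.5% at 24 h against 6 h. At 24 h REV averaged 24.6 ± 1.82 CPM and in mock 51.2 ± 1.55 CPM (log2 −1.06), and PHB averaged 26.4 ± 0.59 CPM at 24 h and 49.0 ± 1.35 CPM in mock (log2 −0.89). ATHB8, a procambium marker, had 23.5 ± 1.54 CPM at 24 h, 57.4 ± 2.89 CPM at 6 h and 43.2 ± 0.503 CPM in mock (SD, n = 3 each). Its log2 change was −0.88 at 24 h against mock and −1.29 at 24 h against 6 h, both called. ATHB15 fell by 0.66 on the log2 scale at 24 h against mock, and PHV, at −0.40, was not called. The list's median log2 change was −0.88 at 24 h against mock and 0.15 at 6 h against mock.

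Of 11 genes upstream in auxin, TMO5-LHW and cytokinin signalling, 1 rose at 6 h against mock and 1 fell at 24 h against mock. Over all genes tested, 5.43% were called higher at 6 h and 18.0% lower at 24 h against mock. MP, the auxin response factor MONOPTEROS that activates TMO6 and TMO5, had 24.2 ± 4.99 CPM at 24 h, 32.8 ± 2.82 CPM at 6 h and 17.5 ± 1.2 CPM in mock, with a called log2 change of 0.91 ± 0.13 at 6 h. T5L1, a close relative of TMO5, had 16.9 ± 2.22 CPM at 24 h, 33.8 ± 3.84 CPM at 6 h and 47.6 ± 1.59 CPM in mock, and its log2 change at 24 h against mock was −1.50 ± 0.10. The other 9 genes were not called in any of the 3 comparisons. Among them were LHW, TMO5, LOG3, LOG4, the cytokinin receptor gene WOL and the response regulators ARR1, ARR10 and ARR12. Some passed the p threshold under the fold limit, in both directions. At 6 h TMO5 was 1.47-fold (adjusted p = 0.000791) and ARR12 1.39-fold higher than in mock (adjusted p = 8.76e-05). At 24 h WOL was 1.27-fold lower than in mock (adjusted p = 0.00148). LOG3, LOG4 and AHP6 did not pass the p threshold in any comparison.

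Genes of the protophloem sieve element, the tissue around which PEAR factors act, moved in both directions. Of 15 tested, 5 fell and 1 rose at 24 h against mock, and 2 rose and none fell at 6 h against mock. The shares over all genes tested were 18.0% lower and 17.6% higher at 24 h, and 5.43% higher and 7.71% lower at 6 h. The falls included SMXL5 (log2 −1.29) and SMXL4 (−1.14), which promote phloem formation, and CVP2 (−1.19) and its relative CVL1 (−0.73), which make phosphoinositide phosphatases needed for sieve element continuity. NAC045, which drives the clearing of the sieve element nucleus, rose by 0.93 on the log2 scale at 6 h and by 0.73 at 24 h, and its relative NAC086 rose by 0.91 at 6 h. The median log2 change of the list was −0.22 at 24 h against mock.

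Of 9 procambium and cambium genes, 4 fell and 2 rose at 24 h against mock, and 3 fell and none rose at 6 h against mock. The shares over all genes tested were 18.0% lower and 17.6% higher at 24 h, and 7.71% lower and 5.43% higher at 6 h. WOX14, a homeobox gene of the procambium, fell at both times (log2 −1.98 at 24 h and −1.56 at 6 h), as did KNAT1 (−2.31 and −0.83) and LBD4 (−1.35 and −0.97). CLE44, which encodes a peptide that keeps procambial cells undifferentiated, averaged 30.3 ± 15.2 CPM at 24 h, 0.935 ± 0.383 CPM at 6 h and 0.64 ± 0.121 CPM in mock (SD, n = 3 each), a called log2 change of 5.57 ± 0.45 at 24 h. The receptor gene PXY, whose ligand CLE44 is, was not called in any comparison.

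Genes reported as targets of OBP1 and OBP4, with close relatives, numbered 6 (CDF4 is also counted among the other DOF genes), of which 1 rose and 1 fell in each comparison. Over all genes tested, 35.5% were called either way at 24 h against mock, 13.1% at 6 h against mock and 24.6% at 24 h against 6 h. CDF4, itself a DOF gene, rose by 0.90 on the log2 scale at 6 h against mock, and the D-type cyclin gene CYCD3;1 fell (−0.66). At 24 h against mock CYCD3;3, a reported target of OBP1, fell (−0.69) and CYCD3;2 rose (0.89). RSL2, a root hair regulator that OBP4 is reported to repress, averaged 32.4 ± 4.69 CPM at 24 h, 35.5 ± 11.8 CPM at 6 h and 34.7 ± 2.18 CPM in mock and was not called. Its relative RSL4 fell by 0.83 on the log2 scale between 24 h and 6 h.

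**Figure D4:**
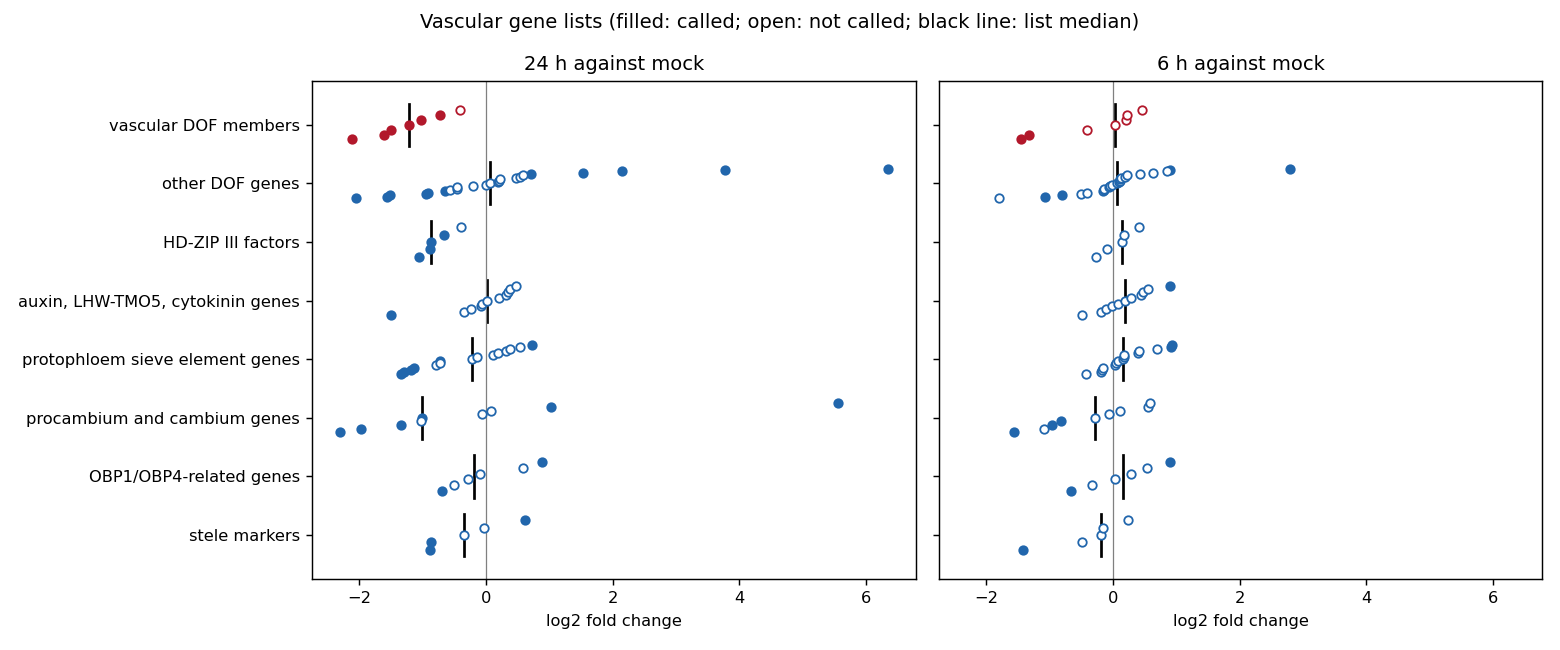
Log2 fold change of each tested gene of 8 lists at 24 h against mock (left) and at 6 h against mock (right), filled where called, with the list's median as a black line. The 7 vascular DOF genes all lie below 0 at 24 h against mock, whereas the 23 tested genes of the rest of the DOF family lie on both sides. The rest of the family was not sorted by tissue and may include other vascular genes.

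The rest of the DOF family did not move in a single direction. It holds the DOF genes outside the 7 and was not sorted by tissue, so that it may include other vascular genes. Among its uncalled genes, OBP2 was 1.45-fold higher at 24 h than in mock (adjusted p = 0.000484), under the fold limit. DOF6 changed little (log2 0.069, adjusted p = 0.794). Of 29 other genes 23 were tested, and 6 of these fell and 5 rose at 24 h against mock, with a median log2 change of 0.069. Of the 5, DOF4.7, DOF3.5 and SCAP1 passed the filter on low counts only through estradiol libraries, so that their rise is no test. Their mock libraries held 0 to 1, 4 to 6 and 3 to 7 reads, in that order. OBP3 and DOF4.1 were the others that rose. At 6 h against mock 2 fell and 2 rose, with SCAP1 again among the latter. Of all genes tested, 18.0% were called lower and 17.6% higher at 24 h, and 7.71% lower and 5.43% higher at 6 h. CDF3, a regulator of flowering time and stress tolerance, averaged 8.83 ± 0.893 CPM at 24 h, 14.9 ± 1.31 CPM at 6 h and 26.0 ± 1.04 CPM in mock, and fell at both times (log2 −1.56 and −0.80). SCAP1, known from guard cell maturation, averaged 2.52 ± 0.6 CPM at 24 h, 1.29 ± 0.365 CPM at 6 h and 0.181 ± 0.0685 CPM in mock. It was called higher at both times (log2 3.77 and 2.80), from 6, 3 and 7 reads in the mock libraries. DOF4.1 rose at 24 h (1.54) and DOF1.6 fell at both times (−2.05 and −1.07). Summed CPM of the 23 tested genes lay between 314 and 337 at 24 h, 318 and 341 at 6 h, and 319 and 325 in mock.

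Some markers of the tissues in the samples changed between the same groups, in both directions, and others were not called. Over all genes tested, 35.5% were called at 24 h and 13.1% at 6 h against mock. Of 5 stele markers PHO1 (log2 −0.88) and HKT1 (−0.87) fell and SKOR (0.62) rose at 24 h against mock, while SHR and WOL were not called. HKT1 also fell at 6 h (−1.42). Their summed level lay between 328 and 406 CPM at 24 h, 392 and 422 CPM at 6 h, and 495 and 546 CPM in mock. PHO1 was the largest part of this sum, with averages of 182 CPM at 24 h, 238 CPM at 6 h and 335 CPM in mock. The fall of the sum therefore mostly reflects PHO1. None of the markers was at 0, so that root stele RNA was present in every library. Among 4 companion cell and sieve element markers PP2-A1 rose (1.74) and SEOR1 fell (−0.88) at 24 h against mock, SUC2 (0.89) and PP2-A1 (0.88) rose at 6 h against mock, and the sums were 183 to 199 CPM at 24 h, 183 to 224 CPM at 6 h and 125 to 153 CPM in mock. Of 4 root meristem markers SCR rose at 24 h (1.17) and the others, PLT1, PLT2 and CYCB1;1, were not called. The sums were 115 to 159 CPM at 24 h, 78.0 to 87.0 CPM at 6 h and 71.3 to 73.6 CPM in mock. SCR was the largest part of these sums, with averages of 116 CPM at 24 h, 59.6 CPM at 6 h and 51.7 CPM in mock. Among 4 root hair and epidermis markers none was called in any comparison, with sums of 119 to 153 CPM at 24 h, 160 to 211 CPM at 6 h and 132 to 144 CPM in mock.

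Of 5 leaf markers 4 were tested, and all 4 were lower at both times, with sums of 37.1 to 42.8 CPM at 24 h, 40.2 to 45.0 CPM at 6 h and 172 to 180 CPM in mock. Over all genes tested, 18.0% were called lower at 24 h and 7.71% at 6 h against mock. LHCB1.1 was not tested, with 0 to 4 reads per library. None of the 4 was called between 24 h and 6 h. The part of these marker changes in the DOF results was not tested.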

How the data were processed

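RNA of 9 root libraries was sequenced by the authors with a stranded poly(A) kit. Trimmed reads were mapped to TAIR10 in CLC Genomics Workbench, and the authors deposited counts of exon reads per gene, RPKM values (reads per exon length and mapped total) and TPM values (the same rescaled to an equal sum). Whether the counting used strand was not given in the sources used here. The counts of all 9 libraries were fitted together in edgeR 4.0.16 under R 4.3.3. Genes were filtered by filterByExpr, library sizes were scaled by TMM and contrasts were tested by glmQLFTest after glmQLFit, edgeR's quasi-likelihood test. The p-values were Benjamini-Hochberg adjusted over 20272 genes. Calls were made at an adjusted p under 0.01 and at least 1.5-fold, which are the thresholds of the study's methods. SE was obtained by dividing the log2 change by the root of F. The depth of 24375822 to 31299634 reads left PEAR1, PEAR2, HCA2 and OBP1 with under 100 reads per library. The libraries carry no molecular identifiers, so that counting intervals cover counting error only.

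The 7 genes and the 12 gene lists (104 entries) were chosen with earlier results of these data known. All 7 genes are named, with STZ, up to 4 called genes of each list per comparison by smallest p, and for each of the 7 the 2 genes of most similar log2 CPM (genes with a symbol, mean of at least 5 CPM). Uncalled list genes, DOF3.5, OBP3 and DOF4.7 were named after their values were seen. Sequences and coordinates come from the RefSeq TAIR10.1 genome, and no protein sequence was used here. The finger sequence of HCA2 is not reported here. The edgeR test was also run on simulated counts with known changes. These counts were drawn with the spread that the same fit had estimated, so that they do not test the calls of the DOF genes.

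Whether replicates came from separate sowings is not stated, so that the p-values reflect only the spread among these libraries, which could be technical. No pair of libraries in a group agreed within counting error (chi-square per gene 3.09 to 23.5). Deviations of same-numbered libraries from their group means correlated at 0.152 to 0.335 between 24 h and 6 h, against −0.222 to 0.030 for libraries of unlike number. The numbers may thus pair these groups, which the labels do not state. Same-numbered libraries correlated at −0.024 to 0.135 between 24 h and mock and −0.051 to 0.146 between 6 h and mock. Alternatives were DESeq2 size factors or total counts in place of TMM, no filter or a stricter filter, DESeq2 1.42.0, limma-voom or limma 3.58.1 on log2(RPKM + 1) and log2(RPKM + 0.1), fits of 2 groups, a replicate block, unique reads, an adjusted p under 0.05 without a fold limit, and leaving out each library in turn.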

Additional observations from a re-analysis of the deposited data

Results flagged for a closer look

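The change against mock differed between the induction times for 5 of the 7 DOF genes, by a test of the difference itself, which is the comparison of the 24 h with the 6 h libraries in the edgeR fit. The log2 change at 24 h minus that at 6 h was −1.42 for PEAR2, −1.09 for TMO6, −1.07 for HCA2, −0.938 for PEAR1 and −0.878 for DOF2.1, and in all 5 every 24 h library was below every 6 h library. Of all genes tested, 24.6% were called in this comparison, 10.5% were called lower, and 28.9% had every 24 h library below every 6 h library. For DOF2.1 the changes against mock had opposite signs at the 2 times, with 0.46 at 6 h and −0.41 at 24 h. For OBP1 (−0.67, adjusted p = 0.127) and OBP4 (−0.29, adjusted p = 0.042) the difference between the times did not pass the threshold, which does not show that it is absent.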

How the results depend on the processing

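Of 450 values of single DOF genes under alternatives, 425 kept direction and call, 16 kept direction and lost the call, 4 gained a call and 5 changed sign. The 450 include values that could hardly change sign. These come from fits without a library of the group not compared, and from the changed thresholds, which reuse the main estimates. All 5 sign changes concern 6 h against mock in genes that were not called: HCA2 gave −0.00048 with total counts alone, −0.086 without the third 6 h library, −0.00014 without the first mock library and −0.024 without the third mock library, and PEAR2 gave −0.024 without the first 6 h library. Leaving out single libraries gave −0.086 to 0.13 for HCA2 and −0.024 to 0.36 for PEAR2 in this comparison. The stricter filter on low counts kept 3 of the 7 genes in the fit and called 1 of them at 6 h against mock, 2 at 24 h against mock and 2 at 24 h against 6 h, since PEAR1, PEAR2, HCA2 and OBP1 were no longer tested. With limma on log2(RPKM + 1), filtered or not, 3 genes were called at 24 h against mock and 3 at 24 h against 6 h, because the added 1 shrinks the fold of genes near 1 RPKM below the limit. At an adjusted p under 0.05 without a fold limit 4 genes were called at 6 h against mock, and calls over all genes numbered 7634 at 6 h and 13247 at 24 h against mock and 11561 at 24 h against 6 h, against 2662, 7206 and 4979. Without single libraries the DOF genes called numbered 1 to 2 at 6 h against mock, 5 to 6 at 24 h against mock and 5 to 5 at 24 h against 6 h, and all genes called numbered 2114 to 2732, 6794 to 7743 and 4502 to 5589. Where a library was left out, the remaining pair was assumed to vary like the other groups. With the replicate block 7318 genes were called for 24 h and 2813 for 6 h against mock, and 5079 for 24 h against 6 h, and it changed no call of the 7 DOF genes (6, 2 and 5). Depth limits the weaker genes, with 7 to 33 reads for OBP1, 22 to 67 for HCA2 and 15 to 79 for PEAR2 per estradiol library.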

Other observations

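DOF4.7, a DOF factor known from floral organ abscission and outside the vascular genes, was named after its values were seen. It had 56, 32 and 12 reads in the 24 h libraries, 0 reads in all 6 h libraries and 0, 0 and 1 reads in the mock libraries. Unlike the 7 vascular genes, DOF4.7 overlaps 1 other annotated gene, AT4G38005, and whether the counting used strand was not given. The share of the DOF4.7 reads that came from AT4G38005 was not tested. Against an assumed floor of 3 counts over the 6 h group, the ratio of DOF4.7 at 24 h to 6 h was 34.7. With the 0 reads at 6 h as counted, counting error alone allows a ratio of 27.7 or more (95%, exact). Against mock, with 1 read in all, the ratio of counts scaled by library size was 109, where counting error alone allows 19.1 to 4350 (95%, exact), and against the same floor it was 36.3. The 24 h libraries ranged over 12 to 56 reads. DOF4.7 passed the filter on low counts only through these libraries, so that their lying above the others is no test. At 6 h and in mock the counts are at or under the floor, so no fold between these is given.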
